A study of Mus musculus with 2 samples.

Results

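Type 6 ON cone bipolar cells were taken here as 442 of the 23625 cell barcodes in the data, 340 of 12316 in the library named Muller and 102 of 11309 in the library named MullerControl. They were selected on their own RNA counts. A member had at least 300 genes, at least 1000 unique molecular identifiers (UMIs, 1 per captured RNA molecule) and at most 20% mitochondrial UMIs. The Müller glia genes Glul, Rlbp1, Apoe and Slc1a3 made up under 0.5% of its UMIs, and it had at least 2 UMIs of the bipolar genes Trpm1, Isl1, Grm6 and Pcp2 together. It had at least 4 UMIs of Cck, Cnmd and Tnnt1 together, with Cnmd or Tnnt1 present. That sum had to be above the sum of the rod bipolar genes Prkca, Sebox, Car8 and Vstm2b and above the sum of the type 5 genes Htr3a, Kcng4 and Sox6, and Igfn1 had to be below 2 UMIs. The levels of these genes in the members are therefore a description and support nothing.

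The study profiled single cells of mouse retina, and its title asks whether Müller glia convert to retinal ganglion cells in vivo. Both libraries came from 14-week-old mice with the Cre-dependent tdTomato reporter allele Gt(ROSA)26Sortm9(CAG-tdTomato)Hze on a B6.Cg background, and both were taken 8 weeks after an AAV injection. tdTomato-positive cells were sorted: about 10% of cells were positive in the control, of which about 120000 were collected, and about 4.9% in the test, of which 60000 were collected, with 27000 cells loaded from each. MullerControl is the control by its name, and Muller was read as the test. The vectors' cargo, the promoter that drives Cre, the animals' sex and the number of animals pooled are not given in the labels. The reporter itself could not be checked, since 0 of 32285 features in the tables are named for tdTomato. There is 1 library per group, so nothing was tested, every interval covers counting error only, and a difference between the libraries cannot be told apart from a difference between mice, sorts or runs. The libraries shared 40 barcode sequences, none of them between members (0).

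Bipolar cells carry signals from photoreceptors to ganglion and amacrine cells. ON types respond to light onset because glutamate from photoreceptors acts on the receptor mGluR6 (Grm6), which closes the channel TRPM1 through a G protein, whereas OFF types use ionotropic glutamate receptors such as the kainate receptor GluK1 (Grik1). Type 6 is an ON cone bipolar type of the mouse whose axon ends in the inner part of the inner plexiform layer, where it is a main input of ON alpha ganglion cells. Of the 6 genes used as its markers, Cck encodes the precursor of the peptide cholecystokinin, Cnmd the membrane protein chondromodulin, Tnnt1 the slow skeletal muscle form of troponin T and Reln the secreted matrix protein reelin. Vsx1 and Lhx3 encode homeodomain transcription factors.

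The 6 markers were all matched to RefSeq promoters of GRCm38.p6, each running from 250 bases before to 50 bases after a gene start. The promoters of 2 genes that chose the members (Cck and Tnnt1) and of Vsx1, which did not, are shown. The rule does not require these genes to be on together. They are written 5′ to 3′ on the gene's own strand, which is the minus strand for each, with capitals marking matches, on either strand, to the 3 motifs named after them. These motifs were picked after the sequences had been read.
Cck promoter, chr9:121495645-121495944: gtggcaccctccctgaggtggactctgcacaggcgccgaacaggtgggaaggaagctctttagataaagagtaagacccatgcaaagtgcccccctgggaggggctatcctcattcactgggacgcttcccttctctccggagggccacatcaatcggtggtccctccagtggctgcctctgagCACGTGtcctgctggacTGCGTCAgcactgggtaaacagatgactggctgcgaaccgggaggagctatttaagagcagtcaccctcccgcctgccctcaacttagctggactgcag
Tnnt1 promoter, chr7:4515926-4516225: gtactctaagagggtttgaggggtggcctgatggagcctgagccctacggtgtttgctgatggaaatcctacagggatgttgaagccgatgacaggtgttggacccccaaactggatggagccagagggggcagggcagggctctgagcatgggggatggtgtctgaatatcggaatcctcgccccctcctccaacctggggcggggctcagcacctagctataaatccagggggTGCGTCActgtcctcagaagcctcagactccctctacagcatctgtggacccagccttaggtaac
Vsx1 promoter, chr2:150689088-150689387: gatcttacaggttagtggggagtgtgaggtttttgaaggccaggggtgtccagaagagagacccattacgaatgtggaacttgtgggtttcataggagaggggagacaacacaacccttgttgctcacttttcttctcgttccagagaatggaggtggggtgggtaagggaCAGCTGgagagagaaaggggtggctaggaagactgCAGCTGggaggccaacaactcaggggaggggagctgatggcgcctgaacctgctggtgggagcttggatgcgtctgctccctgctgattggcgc

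The promoter of Cck held 1 CACGTG starting at base -66 and 1 TGCGTCA starting at base -49 from the RefSeq gene start. The promoter of Tnnt1 held 1 TGCGTCA starting at base -15, and that of Vsx1 held 2 CAGCTG. Among 32851 promoters of this length, 2.12% held TGCGTCA on either strand (TGACGCA on the other). CACGTG was held by 7.15% of them, and CAGCTG by 16.3%; the promoter of Reln also held 1 CACGTG. Neither TAATCC, a core recognised by OTX and CRX homeodomain proteins (in 7.06% of promoters), nor TAATTA, a common homeodomain core (in 5.29%), was found in the windows of any of the 6 markers (0 matches each). A match is a string of letters and not a binding site.

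In GENCODE M21 on GRCm38, Cck spans chr9:121489824-121495694, Cnmd chr14:79637690-79662170, Tnnt1 chr7:4504570-4516382, Vsx1 chr2:150680702-150689360, Lhx3 chr2:26200212-26208289 and Reln chr5:21884454-22344702, all protein-coding and on the minus strand. The whole Tnnt1 promoter window and most of the Vsx1 window lie inside these spans. The RefSeq starts used for Tnnt1 and Vsx1 are thus downstream of the GENCODE gene starts.

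Each gate narrowed the barcodes. In the Muller library 8068 of 12316 barcodes passed the quality limits, 7211 of these passed the Müller gene limit and 3661 of those had enough bipolar UMIs. In MullerControl the numbers were 7769 of 11309, 7180 and 1072. The sum of Cck, Cnmd and Tnnt1 then kept 406 and 126 barcodes, and the comparison with the rod bipolar genes removed most of the rest, from 399 to 345 and from 125 to 102. Members had a median of 16 summed Cck, Cnmd and Tnnt1 UMIs (4 to 47) in Muller and 15 (4 to 55) in MullerControl. All 3 genes were seen together in 251 of 340 members (73.8%) and in 66 of 102 (64.7%). At the limit of 4 UMIs, 31 and 8 barcodes were just inside and 45 and 18 barcodes with 3 UMIs were just outside. Members had a median of 4222 UMIs in Muller and 5021 in MullerControl, with 1478571 and 500660 UMIs in all.

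**Figure D1:**
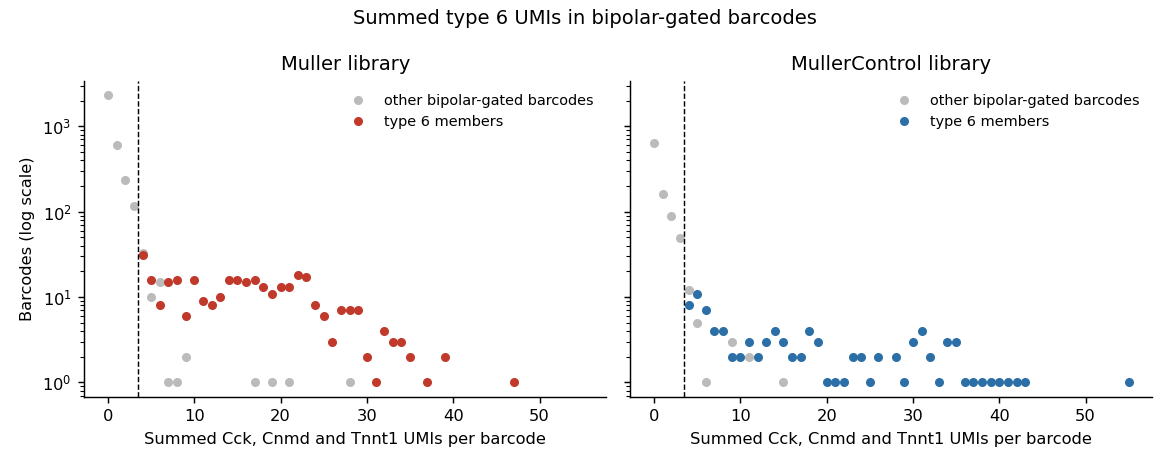
Number of bipolar-gated barcodes (log scale) at each sum of Cck, Cnmd and Tnnt1 UMIs, members in colour and all other bipolar-gated barcodes in grey; the dashed line lies between 3 and 4 UMIs. Members spread from 4 to 47 UMIs in the Muller library and from 4 to 55 in MullerControl, with 248 and 66 barcodes at 10 or more, and the low end runs on without a gap from the barcodes outside.

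Type 6 members made up a larger part of the Muller library but a similar part of its bipolar barcodes. They were 4.21% of quality-passing barcodes in Muller (95% Clopper-Pearson interval 3.79 to 4.68) and 1.31% in MullerControl (1.07 to 1.59), a ratio of 3.21 (2.58 to 4.00). Of bipolar-gated barcodes they were 9.29% (8.37 to 10.3) and 9.51% (7.82 to 11.4), a ratio of 0.976 (0.791 to 1.20). The first ratio moves with what else each library held. Where barcodes with more than 2% of UMIs from 6 rod genes were left out, it was 1.69, and the second ratio was 0.974.

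The markers Vsx1, Lhx3 and Reln were not used by the rule, and their levels check the label. Comparison barcodes were gated in the same way: rod bipolar barcodes (790 and 246 in Muller and MullerControl) and type 5 barcodes (186 and 76) by the gene sums above, Igfn1 barcodes (112 and 41) by at least 2 Igfn1 UMIs, and rods (2085 and 4532), which should lack all of these genes, by rod genes of at least 3% of UMIs. Levels are summed UMIs per 1000000 UMIs of the same barcodes (CPM). Vsx1 stood at 742 CPM in type 6 members of Muller (95% Poisson interval 699 to 787) and at 533 CPM (471 to 601) in MullerControl, against 17.3 and 2.43 CPM in rod bipolar and 14.8 and 5.20 CPM in type 5 barcodes. Lhx3 stood at 165 CPM (145 to 187) and 174 CPM (139 to 214), against 2.47 and 7.30 CPM in rod bipolar barcodes. No Lhx3 UMI was found in type 5 barcodes (0 UMIs), which allows up to 3.70 and 7.80 CPM. Reln stood at 512 CPM (476 to 550) and 605 CPM (539 to 677), against 26.8 and 8.93 CPM in rod bipolar and 146 and 234 CPM in type 5 barcodes. All 3 genes were thus far above rod bipolar barcodes in each library.

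Set beside Igfn1 barcodes, these genes did not mark type 6 alike. Vsx1 reached 680 and 555 CPM and Reln 413 and 695 CPM in Igfn1 barcodes, levels near those of type 6. Lhx3 was at 5.61 CPM (3 UMIs) and at 0 UMIs there, so it was the marker outside the rule that set type 6 apart from all 3 other bipolar gates. None of these 3 gates was set for OFF bipolar cells, so the comparison does not cover them. Members without Cck, which carried OFF bipolar genes (below), held Lhx3 as well. The level of Lhx3 therefore does not tell an ON from an OFF type. Lhx3 was seen in 161 of 340 type 6 members (47.4%) and in 49 of 102 (48.0%), and in 0.288% and 0.0441% of rods, whose median depths of 1586 and 1737 UMIs were lower. With every barcode thinned to 1000 UMIs, Lhx3 was seen in 15.6% and 12.7% of members and in 0.192% and 0% of rods. Rods also served to look at free RNA in droplets. Cck, at 1893 CPM in type 6 members of Muller and 1744 CPM in MullerControl, was at 14.8 and 2.30 CPM in rods. Barcodes that passed any of the bipolar gates were left out of the rods, so this low level is partly set by the gates.

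**Figure D2:**
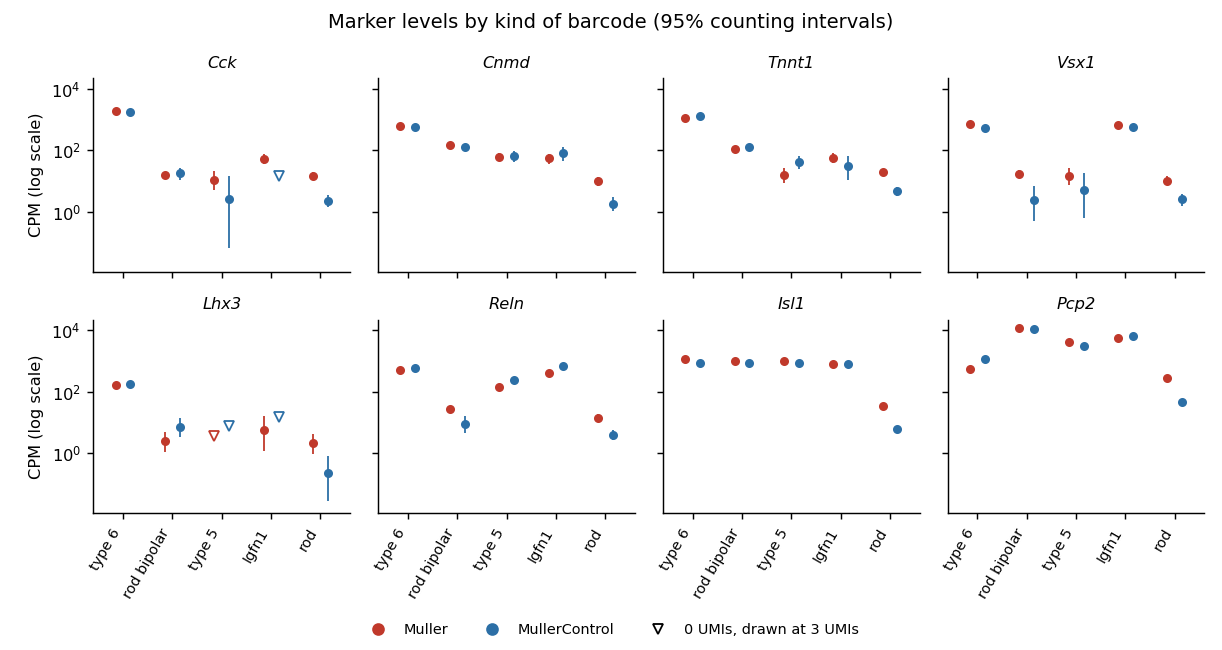
Levels in CPM (log scale) of the 6 markers and of Isl1 and Pcp2 in 5 kinds of barcode; points are 1 library each, bars are 95% Poisson intervals, and open triangles mark 0 UMIs drawn at the level of 3 UMIs. Among these 5 kinds, none of them chosen for OFF bipolar genes, Lhx3 is high in type 6 alone. Vsx1 and Reln are as high in Igfn1 barcodes, and Pcp2 is lower in type 6 than in the other bipolar gates.

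At least 1 of the markers outside the rule was missing in many members. In Muller 118 of 340 members (34.7%) had a UMI of all of Vsx1, Lhx3 and Reln and 19 (5.59%) had none. In MullerControl 28 of 102 (27.5%) had all and 12 (11.8%) had none.

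The members were not of 1 kind, and part of them went against the label. Members with no Cck UMI numbered 27 in Muller (7.94%, 5.30 to 11.3) and 22 in MullerControl (21.6%, 14.0 to 30.8), of which 19 in each library entered through Tnnt1 alone. Members with Cck and at least 2 UMIs of Cabp5, a calcium-binding protein of rod bipolar, type 5 and some OFF bipolar cells, numbered 39 (11.5%) and 2 (1.96%). The other 274 (80.6%) and 78 (76.5%), with Cck and fewer than 2 Cabp5 UMIs, are called Cck-positive, Cabp5-low members below. This division was chosen after the values had been seen, so the genes that define it are a description.

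The members without Cck carried genes of OFF cone bipolar cells. The kainate receptor gene Grik1 was at 276 CPM (194 to 380) and 779 CPM (639 to 940) in them, and at 11.0 and 17.1 CPM in Cck-positive, Cabp5-low members. It was at 1554 and 1729 CPM in 373 and 163 barcodes outside the members that had OFF bipolar genes and neither Isl1 nor Grm6. Those barcodes were chosen by at least 4 UMIs of Grik1, Tacr3, Neto1, Erbb4 and Slitrk6 together. Their Grik1 level is therefore a description and supports nothing. Gsg1 stood at 1244 and 3402 CPM in members without Cck and at 8.29 and 11.4 CPM in the Cck-positive, Cabp5-low members. Erbb4, a receptor tyrosine kinase, was at 89.4 and 216 CPM in the former and at 0 UMIs in the latter in both libraries. Slit2, which encodes a secreted guidance ligand, was at 767 and 1334 CPM in the former and at 157 and 134 CPM in the latter.

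Isl1 and Grm6 were lower and Pcp2 higher in those same members. Isl1, a transcription factor of ON bipolar cells, was at 357 and 238 CPM in members without Cck and at 1317 and 1034 CPM in Cck-positive, Cabp5-low members. Grm6 was at 149 and 130 CPM in the former and at 835 and 885 CPM in the latter. Pcp2, by which barcodes can pass the bipolar gate, was at 1675 and 3229 CPM in the former and at 206 and 208 CPM in the latter. Lhx3 did not separate them as much, at 96.8 CPM (51.5 to 166) and 123 CPM (71.4 to 196) against 183 and 197 CPM. Isl1, Grm6 and Pcp2 are genes of the bipolar gate, so their levels describe these members and support nothing, and without Cck a member had to hold Cnmd or Tnnt1.

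The 2 libraries differed within that group. Neto1, an auxiliary subunit of glutamate receptors, was at 343 CPM in the 27 members without Cck of Muller, where 7 had a UMI, and at 7.21 CPM (1 UMI) in the 22 of MullerControl. Reln was at 179 CPM in the former and at 0 UMIs in the latter. Median depth was 4341 and 5410 UMIs in members without Cck and 6130 UMIs in the 39 members of Muller with Cck and Cabp5, against 4096 and 4761 UMIs in Cck-positive, Cabp5-low members. Among barcodes with the highest doublet scores were 11 of 27 members without Cck in Muller (40.7%) but 1 of 22 in MullerControl (4.55%), 13 of the 39 members with Cck and Cabp5 in Muller (33.3%) and 24 of 274 Cck-positive, Cabp5-low members (8.76%). Whether doublets account for these members was not tested.

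**Figure D3:**
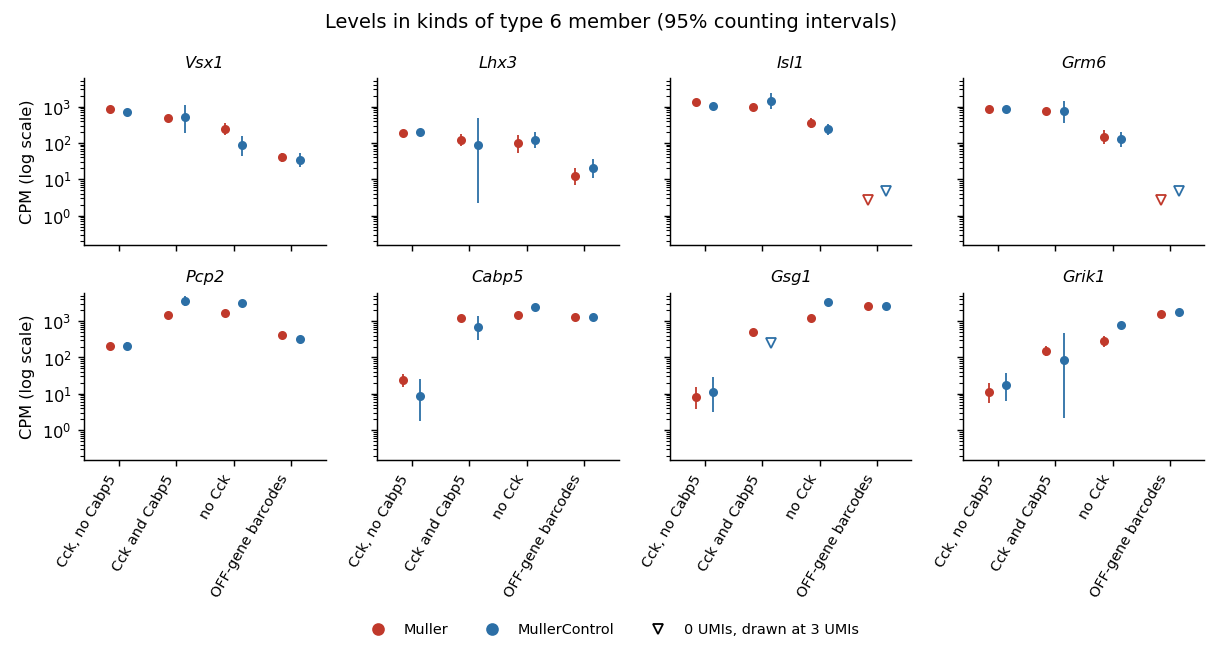
Levels in CPM (log scale) of 8 genes in 3 kinds of type 6 member and in barcodes with OFF bipolar genes outside the members; points are 1 library each, bars are 95% Poisson intervals, and open triangles mark 0 UMIs drawn at the level of 3 UMIs. In both libraries Isl1 and Grm6 are lower and Gsg1 and Grik1 higher in members without Cck than in Cck-positive, Cabp5-low members. MullerControl has only 2 members with Cck and Cabp5. The barcodes with OFF bipolar genes were chosen partly by Grik1 and by the absence of Isl1 and Grm6.

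Against rod bipolar barcodes, type 6 members held more of several transcription factor and adhesion genes and less of Pcp4 and Chgb. Of 9328 genes outside the rule with at least 50 UMIs, 307 (3.29%) were at least 2-fold higher in type 6 in both libraries and 336 (3.6%) were at least 2-fold lower. Since the gates used genes of the same counts, this is a description. Chrna6, a nicotinic receptor subunit, was at 142 and 102 CPM in type 6 and at 2.16 and 1.62 CPM in rod bipolar barcodes of Muller and MullerControl. The cadherin gene Cdh8 was at 441 and 358 CPM against 11.1 and 9.74 CPM. Irx6, an Iroquois homeodomain factor, was at 144 and 274 CPM against 3.39 CPM and 0 UMIs. In Cck-positive, Cabp5-low members Irx6 was at 142 and 114 CPM, so much of its MullerControl level lay in the other members.

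The other genes at this end of the ranking were Sema3d, a secreted semaphorin, Smoc2, a secreted matrix protein, the noncoding A330008L17Rik, Esam, a cell adhesion molecule, and the markers Vsx1, Lhx3 and Reln. Of these 10 genes, 9 were at least 2-fold higher in both libraries when only Cck-positive, Cabp5-low members were counted. The exception was Esam, which had 0 UMIs in them and 216 and 296 CPM in members without Cck. At the other end, the calmodulin-binding Pcp4 was at 143 and 126 CPM in type 6 against 2728 and 3333 CPM in rod bipolar barcodes. Chgb, a granin of secretory granules, was at 448 and 417 CPM against 2841 and 2306 CPM. The other 8 were Ablim1, Cntn4, Prdm8, Klhl5, Nebl, Rapgef5, Adrb1 and Kalrn, and all 10 were at least 2-fold lower in the Cck-positive, Cabp5-low members as well.

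Against type 5 barcodes, 281 of 7597 genes (3.7%) were at least 2-fold higher in type 6 in both libraries and 278 (3.66%) were lower. Pcp4l1 was at 1140 and 817 CPM in type 6 and at 12.3 and 10.4 CPM in type 5 barcodes. Unc13c, which encodes the vesicle priming protein Munc13-3, was at 1056 and 1057 CPM against 38.3 and 33.8 CPM. Cabp2, a calcium-binding protein, was at 315 and 258 CPM against 11.1 CPM and 0 UMIs. The genes Vsx1, Unc5d (a netrin receptor), Grin3a (an NMDA receptor subunit), A330008L17Rik, Zfhx4, Vwc2l and Dusp4 completed the 10 highest.

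Genes lower in type 6 than in type 5 barcodes included several transcription regulators. Meis2 was at 67.6 and 5.99 CPM in type 6 and at 495 and 746 CPM in type 5 barcodes, and in Muller 87 of its 100 type 6 UMIs lay outside the Cck-positive, Cabp5-low members. The neuronal calcium sensor Hpca was at 34.5 and 7.99 CPM against 310 and 203 CPM. Lmo4, Nfia, Nfix, Lhx4, Tubb3, Nme2 and Gm10605 were also among the lowest.

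**Figure D4:**
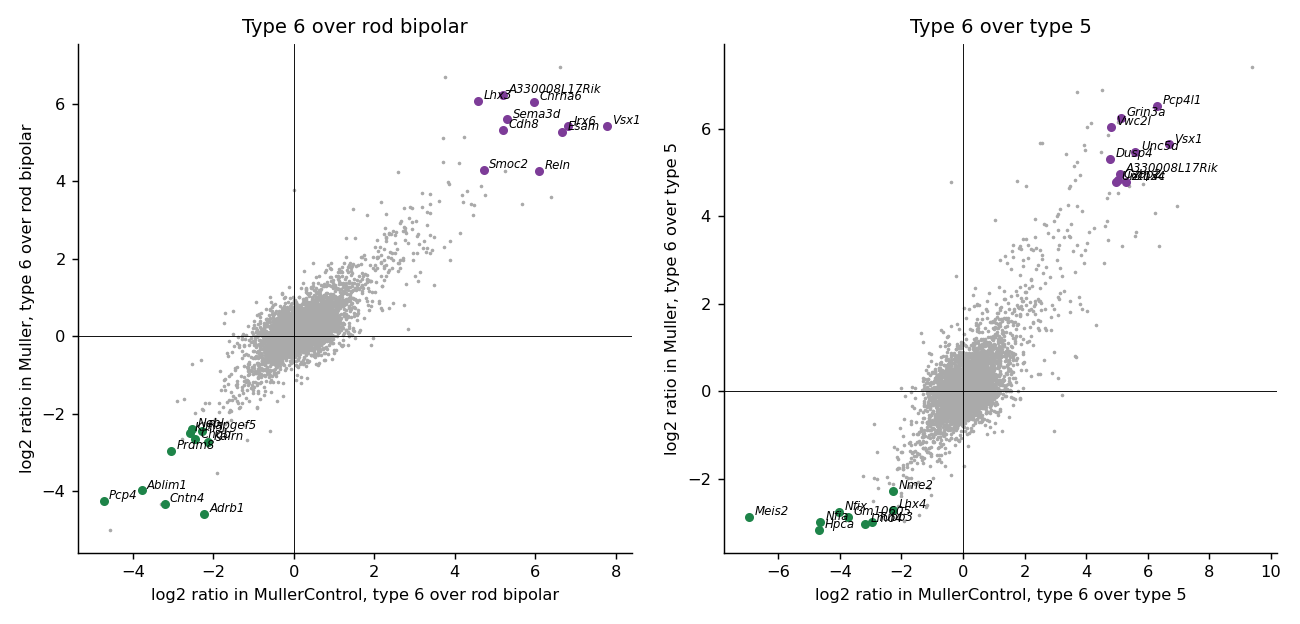
Each grey point is a gene with at least 50 UMIs in type 6 members; axes are log2 ratios of summed CPM, type 6 over rod bipolar (left) or over type 5 barcodes (right), in MullerControl (x) and Muller (y), where a gene with 0 UMIs on 1 side is drawn at its bound. The labelled genes are among the 10 highest and 10 lowest outside the rule, chosen for ratios that are high or low in both libraries; Pcp4 lies at the low end on the left, and Pcp4l1 at the high end on the right.

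Against Igfn1 barcodes the differences were fewer: 127 of 7223 genes (1.76%) were at least 2-fold higher in type 6 in both libraries and 185 (2.56%) lower. Lhx3, Irx6, Cdh8 and Six3 were among the higher, and these 4 were picked from the ranking after it was seen. Six3, a homeodomain factor, was at 1031 and 827 CPM in type 6 and at 112 and 40.0 CPM in Igfn1 barcodes.

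Gene lists show where type 6 departs from these bipolar gates, and each count is to be read against the percentages above. Of 19 bipolar transcription factors measured against rod bipolar barcodes, 7 were higher (Vsx1, Lhx3, Bhlhe22, Irx5, Irx6, Six3 and Zfhx4) and 4 lower, among them Prdm8, St18 and Nfib. Against type 5 barcodes 5 of 17 were higher and 4 lower, and Vsx1, Lhx3, Irx6, Six3 and Zfhx4 were the 5. Of 37 adhesion and guidance genes measured against rod bipolar barcodes, 11 were higher and 9 lower. Cdh8, Cdh4, Pcdh9, Slit2, Efna5, Unc5d and Nrxn2 were higher against rod bipolar and type 5 barcodes alike, with Slit2 lying mostly in members without Cck in MullerControl.

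The counts of ON cascade genes were no more than 1 in either direction, near the shares of all genes, and are read as no result about type 6. Of 11 genes of the ON cascade measured outside the rule, none was at least 2-fold higher than in rod bipolar barcodes (0) and 1 was lower (Rgs7), and against type 5 barcodes 1 was higher (Rgs11) and none lower (0). Rgs11, which speeds the deactivation of the G protein behind mGluR6, was at 298 and 236 CPM in type 6 and at 93.8 and 93.6 CPM in type 5 barcodes. Of 27 ribbon synapse and release genes measured against rod bipolar barcodes, Unc13c was higher and 3 were lower, among them Unc13b and Cacna2d3. Of 14 GABA and glycine receptor genes, 4 were higher than in rod bipolar barcodes, among them Gabrb1, Gabrb2 and Glrb, and 1 was lower (Gabrg3).

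Granins took part in both directions. Scg2, a secretogranin stored with peptides in dense-core vesicles, was at 6255 CPM in type 6 members of Muller and 5645 CPM in MullerControl, against 2237 and 1757 CPM in rod bipolar and 485 and 546 CPM in type 5 barcodes. Of 13 peptide processing and granin genes, Scg2 and Scg3 were higher than in rod bipolar barcodes and Pam, Chga and Chgb were lower. Of the gap junction genes measured against rod bipolar barcodes, both (Gjd2 and Gjc1) were higher, and Gjd2, which encodes connexin 36, was at 301 and 254 CPM, with log2 ratios of 3.67 and 3.38. Against type 5 barcodes the log2 ratios of Gjd2 were 0.15 and 0.20.

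Between the libraries, type 6 members differed little in most genes. Of 6086 genes with at least 50 UMIs in members, 344 (5.65%) were at least 1.5-fold higher in Muller and 370 (6.08%) at least 1.5-fold lower, around a median log2 ratio of 0.006. Among the 6 markers none passed 1.5-fold in either direction (0). Vsx1 had a log2 ratio of 0.48 (0.28 to 0.67), Reln of -0.24 (-0.44 to -0.04), Tnnt1 of -0.23 (-0.36 to -0.10) and Lhx3 of -0.07 (-0.43 to 0.30). Thinned to 1000 UMIs, Lhx3 was at 0.40 and Vsx1 at 0.16, so no direction is given for Lhx3. Cck was at 0.12 (0.01 to 0.23) and at -0.078 in Cck-positive, Cabp5-low members.

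Of the 8 genes of at least 100 CPM with the lowest ratios, Opn1sw and Pde6h lay mostly in single barcodes, and Gsg1, Grik1 and Ccdc136 lost most of their difference without the members that lack Cck or hold Cabp5. Opn1sw, the short-wave cone opsin, had 49 UMIs in Muller and 190 in MullerControl, a log2 ratio of -3.52 (-4.00 to -3.06). A single MullerControl barcode held 168 of the 190, and without it the ratio was -0.43. A single Muller barcode held 36 of the 49, and without that one the ratio was -5.42. Pde6h, a cone phosphodiesterase subunit, was at -2.94 and at -1.004 without the barcode that held 75 of 101 UMIs. Gsg1 was at -2.20 (-2.41 to -1.98) and Grik1 at -1.95 (-2.37 to -1.54), and in Cck-positive, Cabp5-low members at -0.46 (-2.30 to 1.69) and -0.63 (-2.16 to 1.07), where they had 9 and 4 and 12 and 6 UMIs. Ccdc136 was at -1.67 (-2.003 to -1.34), and at -0.61 (-1.19 to -0.02) in those members. Of 4 cone genes measured, all 4 were lower in Muller, and of the 2 measured in Cck-positive, Cabp5-low members 0 were. Summed cone marker levels were 820 and 1870 CPM in type 6 members and 384 and 648 CPM in rods. In Cck-positive, Cabp5-low members they were 888 and 1302 CPM. Of 6 cone genes measured against rod bipolar barcodes, Gnat2 and Gngt2 were at least 2-fold higher in type 6 in both libraries and 2 were lower. Against type 5 barcodes Gnat2 and Gngt2 were again higher, of 5 measured, and 0 were lower.

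The other 3 kept their size in Cck-positive, Cabp5-low members. Gpr162, an orphan receptor, was at 62.9 and 176 CPM, a log2 ratio of -1.48 (-1.92 to -1.05), and at -1.20 in those members. Its ratios were -1.47 in rod bipolar, -1.30 in type 5 and -1.91 in Igfn1 barcodes. Csmd3, a large transmembrane protein, was at 46.0 and 128 CPM, a log2 ratio of -1.47 (-1.99 to -0.96), and at -1.39 in those members, with -0.22 in rod bipolar and 0.51 in type 5 barcodes. AY036118 was at -1.46 (-1.77 to -1.15) in type 6 and at -0.96 in rod bipolar, -1.42 in type 5 and -1.02 in rod barcodes, and thinned to 1000 UMIs it was at -0.76 in type 6. Gpr162 and AY036118 were thus lower in Muller in other bipolar gates as well.

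Among genes of at least 100 CPM in 1 library, the highest ratio was that of Xist, the noncoding RNA that silences an X chromosome in female cells. Type 6 members held Xist at 1104 CPM (1051 to 1159) in Muller. In MullerControl they held it at 314 CPM (266 to 367), and the log2 ratio was 1.82 (1.58 to 2.06). Xist was seen in 70.9% and 14.7% of members. The log2 ratio of Xist was 1.43 in rod bipolar, 0.86 in type 5 and 1.46 in rod barcodes. The Y-linked Ddx3y went the other way, at 35.8 CPM in Muller and 89.9 CPM in MullerControl. Both libraries therefore held cells with Xist and cells with Ddx3y, in different proportions, and the part of sex in other differences was not tested.

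Ednrb, the endothelin receptor type B, was the next among genes of at least 100 CPM. Rarer genes had higher ratios on few MullerControl UMIs: Meis2, with 100 and 3 UMIs, was at 3.497 (1.91 to 5.80). Ednrb had 257 UMIs in Muller and 33 in MullerControl, that is 174 CPM (153 to 196) in the former and 65.9 CPM (45.4 to 92.6) in the latter. Its log2 ratio was 1.40 (0.87 to 1.97). In Cck-positive, Cabp5-low members the ratio was 1.20 (0.65 to 1.80). Ednrb stood at 20.03 and 18.7 CPM in rod bipolar barcodes, a log2 ratio of 0.10, with 0.04 in type 5 and 0.05 in Igfn1 barcodes. In rods it was low, at 3.29 and 0.917 CPM (12 and 8 UMIs), but its log2 ratio there was 1.84. It was seen in 40.9% and 22.5% of members. Thinned to 1000 UMIs each, members showed it in 13.5% and 9.80%, and the log2 ratio was 0.85. Whether the ratio in type 6 differs from that in the other gates was not tested, since each is a single pair of libraries.

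The next genes were less far from 0. Nab1, Smap2, Dnajc21, Hsd17b12, Enho and Slk had log2 ratios from 0.85 to 0.99, and each lower interval bound was above 0. In Cck-positive, Cabp5-low members these were 1.14, 0.96, 0.94, 1.12, 0.85 and 0.72. With barcodes thinned to 1000 UMIs, Nab1 was at 0.43 and Slk at 0.46, below 1.5-fold.

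**Figure D5:**
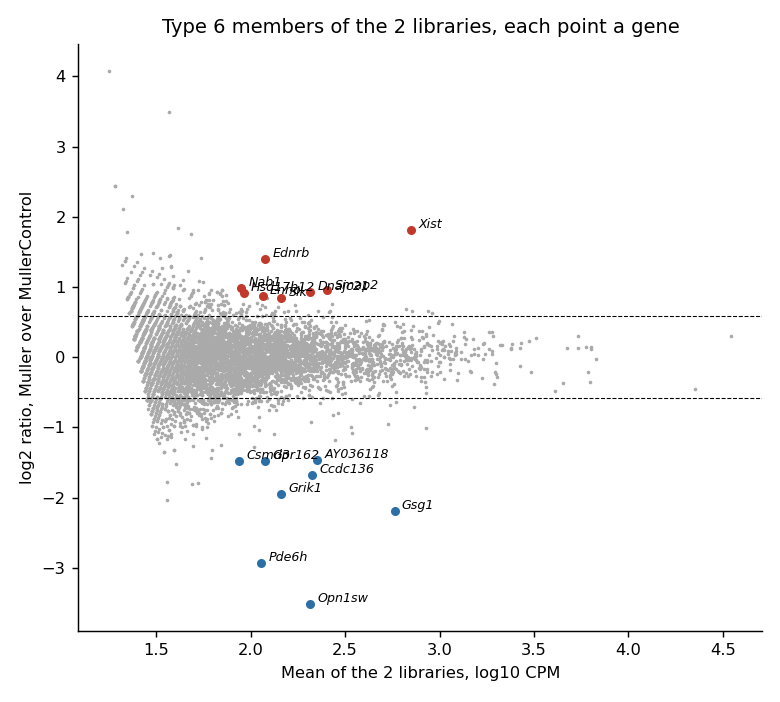
Log2 ratio of CPM in type 6 members, Muller over MullerControl, against the log10 mean level for each of 6086 genes; dashed lines mark 1.5-fold, red points the 8 highest and blue points the 8 lowest genes of at least 100 CPM in 1 library. Among the coloured genes Xist (1.82) and Ednrb (1.40) are the highest and Opn1sw (-3.52), Pde6h (-2.94), Gsg1 (-2.20) and Grik1 (-1.95) the lowest; grey points of lower level lie above Xist.

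Few lists moved as a group between the libraries, and most counts lay near the shares of 5.65% and 6.08%. Of 14 ON cascade genes 1 was lower in Muller (Pcp2) and none higher (0), with a median log2 ratio of 0.04. Pcp2 was at 562 and 1127 CPM, a log2 ratio of -1.003, and at -0.02 (-0.40 to 0.39) in Cck-positive, Cabp5-low members. Of 26 ribbon synapse genes none was higher (0) and 3 were lower (Rims1, Cabp5 and Cacnb2), and of 24 adhesion and guidance genes 1 was higher and 6 were lower, which became 0 of 19 in both directions in Cck-positive, Cabp5-low members. Glycolysis genes had a median of 0.16 and Ldha, lactate dehydrogenase A, was the 1 of 14 past 1.5-fold, at 0.69 (0.49 to 0.89). Of 13 immediate early and stress genes 1 was higher (Jund) and 2 were lower. Egr1, an activity-regulated transcription factor and 1 of the 2, was at 85.2 and 182 CPM and a log2 ratio of -1.09 (-1.49 to -0.69). Egr1 was also lower in Muller in type 5 barcodes, at 291 against 811 CPM.

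RNA of other cell types was low in members but not even between the libraries. Summed levels of 8 Müller markers were 288 CPM in Muller and 150 CPM in MullerControl, and 555 and 228 CPM in rods of the same libraries. Glul and Apoe, the 2 with enough UMIs, had log2 ratios of 0.74 and 1.09. Summed amacrine markers were at 87.2 and 7.99 CPM, with 6 of the 9 genes at 0 UMIs in MullerControl. In rods they were at 140 and 23.3 CPM. Microglia markers were at 90.0 and 5.99 CPM. C1qa had 46 UMIs in Muller, of which 44 were in 1 barcode. Ganglion cell markers were at 12.9 CPM in Muller, with Pou4f1, Pou4f2, Pou4f3, Slc17a6 and Rbpms at 0 UMIs, and at 0 UMIs for all 9 in MullerControl. These ganglion markers were also at 17.3 and 5.05 CPM in rods and at 30.9 and 5.20 CPM in type 5 barcodes. In rod bipolar barcodes they were at 14.8 and 13.0 CPM. The higher level in Muller was thus not particular to type 6. Summed rod markers were at 3045 and 2730 CPM. Pax6, a transcription factor of amacrine cells and Müller glia, was higher in Muller, at 32.5 against 5.99 CPM, and Ptbp1 was at 33.1 and 19.97 CPM, a log2 ratio of 0.73 (-0.27 to 1.88). The part of these transcripts in the differences between libraries was not tested.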

How the data were processed

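Each library is 1 droplet-based 3' single-cell RNA library of sorted retinal cells. The authors deposited UMI counts per gene and barcode, made with Cell Ranger 4.0.0 per the submitters' processing notes, which also name Seurat 4.0.5 and the builds mm10 and GRCh38. The protocol in the labels names both a v3.1 and a v2 kit. No barcode in the deposited counts has fewer than 500 UMIs. The counts give the depth: members hold 1478571 and 500660 UMIs.

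Here counts were summed over gated barcodes and divided by their total (CPM). Intervals are exact at 95% for counts and shares; that of a ratio of shares is a normal approximation on the log scale. A count of 0 was set to 3 for a bound. Named genes were every marker and rule gene, the 8 highest and 8 lowest ratios between libraries among genes of at least 50 UMIs and 100 CPM, the 10 highest and lowest against each other gate, and up to 4 genes of each of 36 lists (407 of 410 genes found). A gene or list counts as higher or lower past 1.5-fold between libraries and past 2-fold in both libraries between gates. The members and lists were chosen with earlier results of these data known, and the other gates were set for this work. Doublets were not removed from the main values; Scrublet's automatic threshold called 2 and 0 barcodes, so leaving out the 9.51% and 8.32% of barcodes with the highest scores was tried instead. Python 3.11.15, numpy 2.4.6, scipy 1.17.1 and scanpy 1.11.5 were used, and the steps were checked on simulated data. Some genes that the naming rule or the lists select are not reported here.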

Additional observations from a re-analysis of the deposited data

How the results depend on the processing

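Of 72 recomputed shares and gene counts, 63 kept their size and 9 moved; all 12 shares of members with a marker UMI moved when thinned (Cck 92.1% to 77.6%, Vsx1 82.4% to 46.2% in Muller). With rod-rich barcodes left out, the ratio of shares of quality-passing barcodes was 1.69. Thinning each barcode to 1000 UMIs left 1837 genes for the contrast of libraries and gave 169 higher and 107 lower, with 160 higher than in rod bipolar and 122 higher than in type 5 barcodes. With at least 100 UMIs a gene, 127 were higher and 118 lower in Muller. With at least 20 UMIs they were 811 and 904, so these counts follow the minimum used. Of 364 gene ratios, 327 stayed within their interval, 35 moved and 2 ratios whose interval lay off 0 changed sign: Opn1sw, at 0.53 with at least 6 summed type 6 UMIs, and Cck, at -0.078 in Cck-positive, Cabp5-low members, a setting chosen after seeing the data. Ratios whose interval held 0 also changed sign: Lhx3 (0.40) and Trpm1 (-0.15) when thinned, Trpm1 (-0.05) with at least 6 summed UMIs, and Cnmd (-0.080), Grm6 (-0.084) and Trpm1 (-0.18) in Cck-positive, Cabp5-low members. In those members 359 of 4968 genes were higher and 289 lower in Muller. The cause was not tested. With 102 members, MullerControl limits what can be seen: a gene at 0 there may reach 5.99 CPM. No paired analysis was possible because the libraries share only the replicate number 1.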
